A study of Mus musculus with 15 samples.

Results

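Livers of mice kept on every-other-day fasting were compared directly with livers of mice kept on 16-h intermittent fasting. The 10 libraries were all those of these 2 groups, out of 15 libraries in the series, and every gene of the raw count table entered the comparison. The first group (EOD) had fasted for 24 h every other day, and the second (IF16) for 16 h, both for 3 months, with 5 libraries each. All mice were C57BL/6, were 3 months old at the start and 6 months old at the end, and had been assigned to their regimen at random. RNA came from the left lateral liver lobe. The other 5 libraries, from mice fed ad libitum (AL), were not used in any test and are given beside some results as levels only. The labels do not say whether each library is a separate mouse, at what hour the livers were taken, or when the mice had last eaten. Since this is not known, the p-values cover only the spread among these libraries, part of which may be technical.

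The liver switches between making fat from sugar after a meal and burning fat between meals. In the fed state the transcription factors SREBP1c (gene Srebf1) and ChREBP (gene Mlxipl) drive the enzymes of fatty acid synthesis, while SREBP2 (gene Srebf2) drives those of cholesterol synthesis. Between meals the nuclear receptor PPARA, which fatty acids activate, drives the enzymes that oxidise fatty acids and form ketone bodies. Feeding times also set the phase of the liver's circadian clock.

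Levels are given as CPM (each library's counts scaled to the same total) and corrected by the trimmed mean of M values (TMM). A difference is EOD minus IF16 on the log2 scale, so that a negative value is lower in EOD. It is given with its standard error (SE) and the Benjamini-Hochberg adjusted p of edgeR's quasi-likelihood test over all tested genes, and a gene passed at an adjusted p under 0.05. Values of single libraries are listed from replicate 1 to 5. The tissue is bulk liver, in which fewer cells of a type and less RNA per cell cannot be told apart.

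Library totals ran from 29581097 to 37802749 counts in EOD and from 31362642 to 38147534 in IF16. The liver label was checked on 8 hepatocyte markers, whose summed level was 86121 to 114622 CPM in EOD and 103448 to 132213 in IF16. Spearman correlations between libraries were 0.973 to 0.99 within EOD, 0.978 to 0.992 within IF16 and 0.967 to 0.984 between the groups. The first principal component, with 38.4% of the variance, set all EOD libraries above all IF16 libraries. EOD replicate 5 stood apart: it lay at 1.3 on that component, against 18.7 to 38.7 for the other EOD libraries and -32.8 to -17.5 for IF16. Transcripts of the mitochondrial genome took 6.83%, 6.35%, 5.34%, 5.84% and 10.1% of the counts in EOD replicates 1 to 5. In IF16 they took 8.98%, 9.54%, 10.5%, 11.4% and 11.5%. The share of EOD replicate 5 was thus inside the range of IF16 and above every other EOD library. Counts without this library are given for most gene groups. The part of the mitochondrial share in the other differences was not tested.

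**Figure D1:**
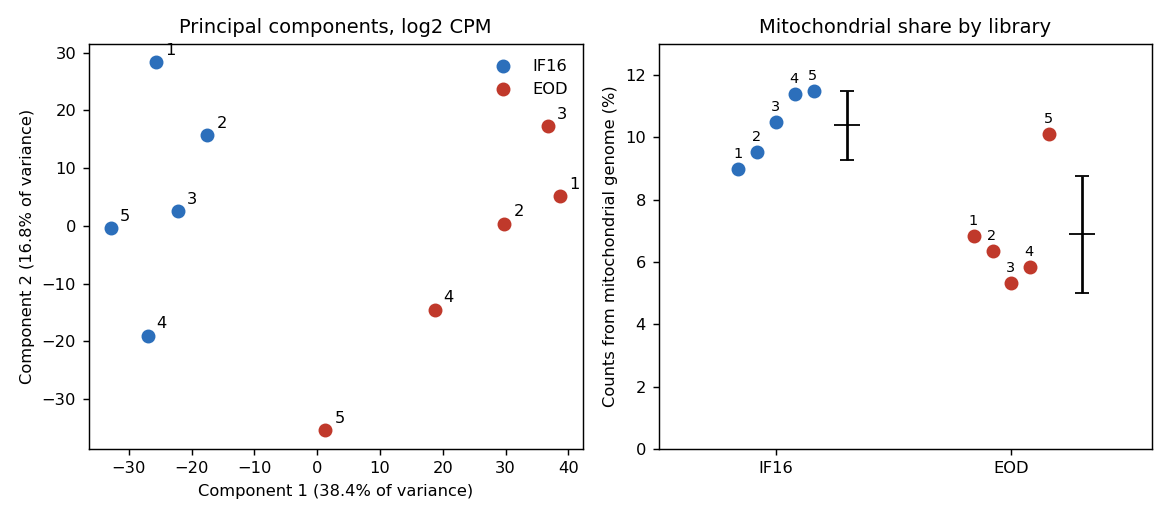
Left, the 10 libraries on the first 2 principal components of log2 CPM, with replicate numbers. Right, the percentage of counts from the mitochondrial genome per library, with the mean and SD of 5 beside each group. EOD replicate 5 lies between the groups on the first component, and its mitochondrial share of 10.1% is within the IF16 range.

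Of 13505 genes with enough counts to be tested, 2247 (16.6%) passed, 1185 (8.77%) of them higher in EOD and 1062 (7.86%) lower. Many differences were small: 611 of the higher and 419 of the lower genes differed by less than 1.5-fold. The large ones lay more often on the lower side: 237 genes (1.75%) were at least 2-fold lower in EOD and 156 (1.16%) at least 2-fold higher, together 2.91% of the genes tested. In 1496 genes (11.1%) the 5 EOD and 5 IF16 libraries did not overlap. Changes of more than 8-fold were found for 11 lower and 3 higher genes. The median log2 fold change of all tested genes was 0.01. Without EOD replicate 5 the test called 3701 genes, 1913 higher and 1788 lower, and without IF16 replicate 5 it called 1318, 626 higher and 692 lower. Leaving out EOD replicate 2 gave 1495, the other omission that moved the count by more than 1.5 times.

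Among the lists of lipid metabolism, most genes of fat and cholesterol synthesis were lower and most genes of fat oxidation were higher. Genes for glycolysis, glutathione transferases and MHC class I processing were lower where they passed, with few or no exceptions. Ribosomal protein, proteasome and cytosolic chaperone genes that passed were all higher. The plot of list shares and medians sets 21 gene lists against all tested genes. List counts given below without a share stand against 16.6% of all tested genes, 8.77% higher and 7.86% lower. The lists were chosen with earlier results of these data known, so their shares only describe them. Median gene levels were 21.6 CPM for higher genes, 12.6 for lower genes and 9.67 for all tested genes. Lists were not matched for level.

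**Figure D2:**
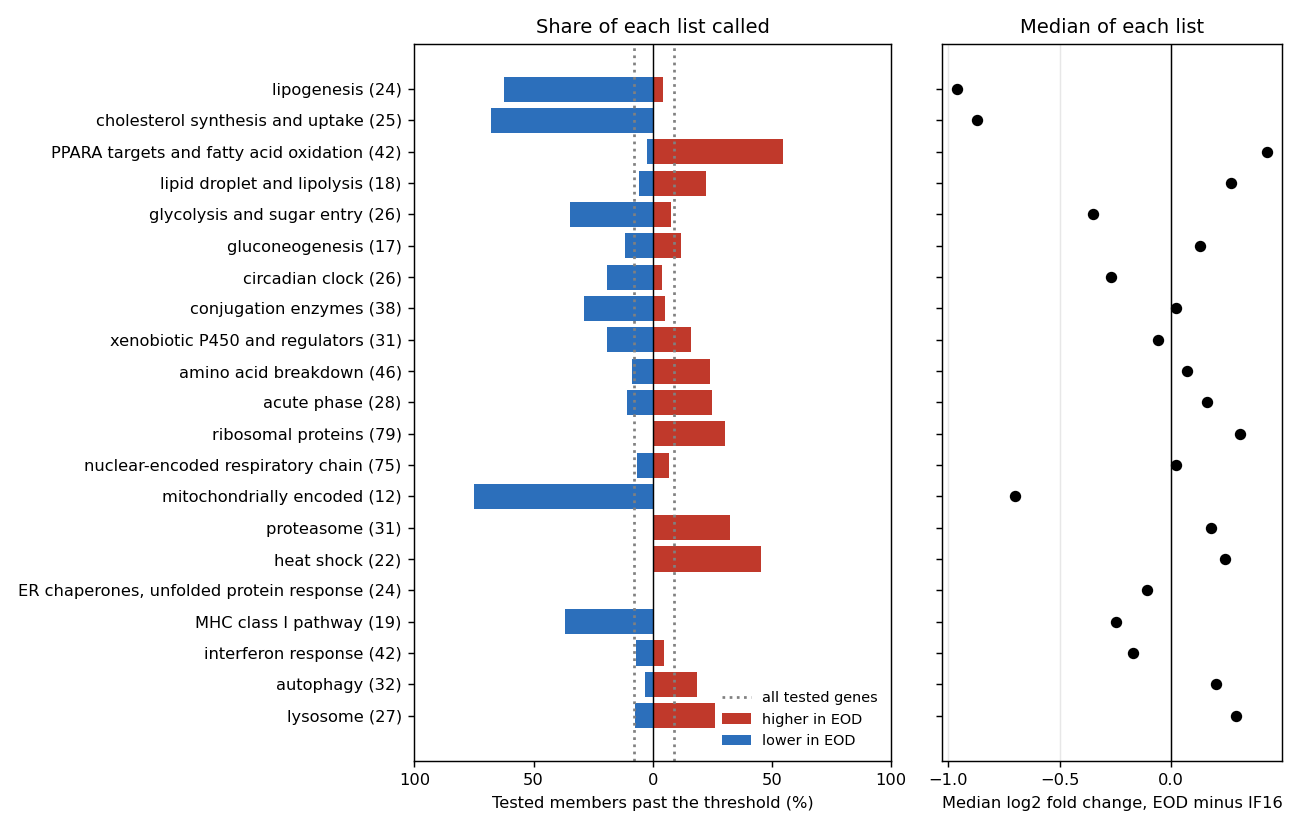
Left, the percentage of tested members of each gene list that passed, higher (right of 0) or lower (left of 0) in EOD, with the number tested in brackets and the shares over all tested genes (8.77% and 7.86%) as dotted lines. Right, the median log2 fold change of each list. Lipogenesis and cholesterol synthesis have the lowest medians, -0.96 and -0.87, and fatty acid oxidation the highest, 0.43.

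Promoters of 6 genes of fat and cholesterol synthesis, the lists with the lowest medians, are shown first. The RefSeq promoter windows used here (build GRCm38.p6, which is mm10) were searched over the 250 bases before each gene's start, on both strands. The letters CCAAT, the box bound by NF-Y, which acts together with SREBP at sterol-regulated genes, were held by 34.8% of the 12579 windows of tested genes. In the cholesterol list 16 of 20 windows (80%, from 17 of the 25 tested members) held them, and in the lipogenesis list 13 of 25 (52%, from 19 of 24). Such shares were not particular to these lists: they were 85% for endoplasmic reticulum chaperones, 75% for the cell cycle, 68.4% for the MHC class I list, 61% for amino acid breakdown and 51.4% for the PPARA list. Among windows of all genes that passed, the shares were 36.8% for lower and 37.9% for higher genes. The sterol response element, searched as TCACNCCAC, was held by 1.06% of the windows of tested genes and by 1 of 20 in the cholesterol list, that of Hmgcs1. CCAAT and its complement ATTGG can share 2 letters, as one pair does in Fasn. A match describes letters only, and whether a factor bound there was not measured. RefSeq starts can differ from the gene bounds given with the counts, as for Fasn and Thrsp. The Thrsp stretch lies wholly inside those bounds (chr7:97412938-97417730), so by them its marked boxes are within the gene. The last bases of the Lss stretch also lie inside its bounds (chr10:76531588-76557138). The stretches below run 5′ to 3′ on the gene's strand and end 11 bases before its start, with the CCAAT boxes (ATTGG on the opposite strand) in capitals, and in Hmgcs1 also the sterol response element TCACCCCAC.
Hmgcs1 (chr13:119690101-119690340, plus strand): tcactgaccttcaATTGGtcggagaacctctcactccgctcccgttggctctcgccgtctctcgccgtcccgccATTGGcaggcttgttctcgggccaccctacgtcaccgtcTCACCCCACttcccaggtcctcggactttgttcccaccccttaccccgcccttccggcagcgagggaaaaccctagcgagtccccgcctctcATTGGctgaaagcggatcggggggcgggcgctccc
Mvd (chr8:122443433-122443622, minus strand): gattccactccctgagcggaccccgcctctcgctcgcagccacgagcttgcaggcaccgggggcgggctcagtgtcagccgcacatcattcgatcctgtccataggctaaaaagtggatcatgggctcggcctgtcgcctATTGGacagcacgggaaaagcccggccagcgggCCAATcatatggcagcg
Lss (chr10:76531465-76531594, plus strand): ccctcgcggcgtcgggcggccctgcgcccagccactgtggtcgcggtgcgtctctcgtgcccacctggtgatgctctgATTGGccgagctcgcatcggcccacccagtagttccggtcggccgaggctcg
Nsdhl (chrX:72918381-72918510, plus strand): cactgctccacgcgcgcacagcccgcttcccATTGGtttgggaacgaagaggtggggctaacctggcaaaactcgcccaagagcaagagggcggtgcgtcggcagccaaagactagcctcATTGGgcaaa
Fasn (chr11:120824558-120824707, minus strand): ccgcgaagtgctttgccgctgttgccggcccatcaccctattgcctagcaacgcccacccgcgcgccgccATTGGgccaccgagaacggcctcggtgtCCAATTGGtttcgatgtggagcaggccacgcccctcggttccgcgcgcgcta
Thrsp (chr7:97417561-97417710, minus strand): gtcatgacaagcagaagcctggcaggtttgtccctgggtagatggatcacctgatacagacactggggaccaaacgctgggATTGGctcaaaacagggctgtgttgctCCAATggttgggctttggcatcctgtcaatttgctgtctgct

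Most genes of fatty acid synthesis were lower in EOD. Of the 24 genes of the lipogenesis list, all tested, 15 fell, 1 rose and 8 did not pass, with a median of -0.96. Without EOD replicate 5 the counts were 16 and 1. Srebf1, which encodes SREBP1c, was at 23.6, 20.5, 36.1, 22.5 and 39.1 CPM in EOD and 224, 124, 93.9, 79.8 and 99.3 in IF16 (log2 fold change -2.13, SE 0.29, adjusted p 0.000798). The groups did not overlap. Thrsp (Spot 14, a nuclear protein that tracks lipogenic activity; chr7:97412938-97417730, minus strand) had the largest decrease among coding genes that passed without overlap. It was at 10.2, 17, 22.7, 17.8 and 12 CPM in EOD and 1047, 480, 327, 141 and 873 in IF16 (log2 fold change -5.17, SE 0.56, adjusted p 0.000474), and the lowest IF16 library, replicate 4, was still above the highest EOD library. Its relative Mid1ip1, which activates acetyl-CoA carboxylase, fell as well (log2 fold change -1.97, adjusted p 0.000208).

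The enzymes of the pathway were lower too. Fatty acid synthase, Fasn (chr11:120805940-120824178, minus strand), was at 30.8, 28.8, 36.7, 30.7 and 34.4 CPM in EOD and 526, 328, 183, 119 and 388 in IF16 (log2 fold change -3.26, SE 0.35, adjusted p 0.000208). The 5 EOD libraries were close together, while IF16 spread more than 4-fold, from 119 in replicate 4 to 526 in replicate 1. Elovl6, which extends palmitate, was at 11, 13.8, 16, 11.7 and 11.5 CPM against 119, 115, 83.1, 56.1 and 240 (log2 fold change -3.26, SE 0.34, adjusted p 0.000194). Both acetyl-CoA carboxylases fell, Acaca (log2 fold change -1.98, adjusted p 0.00022) and Acacb (log2 fold change -1.86, adjusted p 0.000554). So did the enzymes that supply cytosolic acetyl-CoA, Acly (log2 fold change -1.58, adjusted p 0.00208), from citrate, and Acss2 (log2 fold change -1.81, adjusted p 3.56e-05), from acetate. The citrate carrier Slc25a1 (log2 fold change -0.61, adjusted p 0.00524), the desaturase Fads1 (log2 fold change -0.86, adjusted p 0.002) and the last enzyme of triglyceride synthesis, Dgat2 (log2 fold change -0.43, adjusted p 0.0127), fell by less. Malic enzyme, Me1, fell too (log2 fold change -0.93, adjusted p 0.007), though its call was lost when the AL libraries joined the fit. The member that rose was Gpam, the first enzyme of glycerolipid synthesis: 31.4, 19.9, 25.5, 16.1 and 17.4 CPM in EOD and 17.2, 15.4, 13.6, 10.5 and 12 in IF16 (log2 fold change 0.68, SE 0.19, adjusted p 0.0231), with overlapping groups and a call that 6 alternatives ended.

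Members that did not pass included Scd1 (stearoyl-CoA desaturase), at 2250 CPM in EOD and 3284 in IF16 (log2 fold change -0.55, adjusted p 0.117), and Mlxipl, which encodes ChREBP (log2 fold change -0.34, adjusted p 0.379). As levels beside these, AL libraries held 1612, 1516, 956, 384 and 411 CPM of Fasn, 1638, 1420, 1237, 467 and 593 of Thrsp and 532, 357, 319, 169 and 208 of Srebf1.

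**Figure D3:**
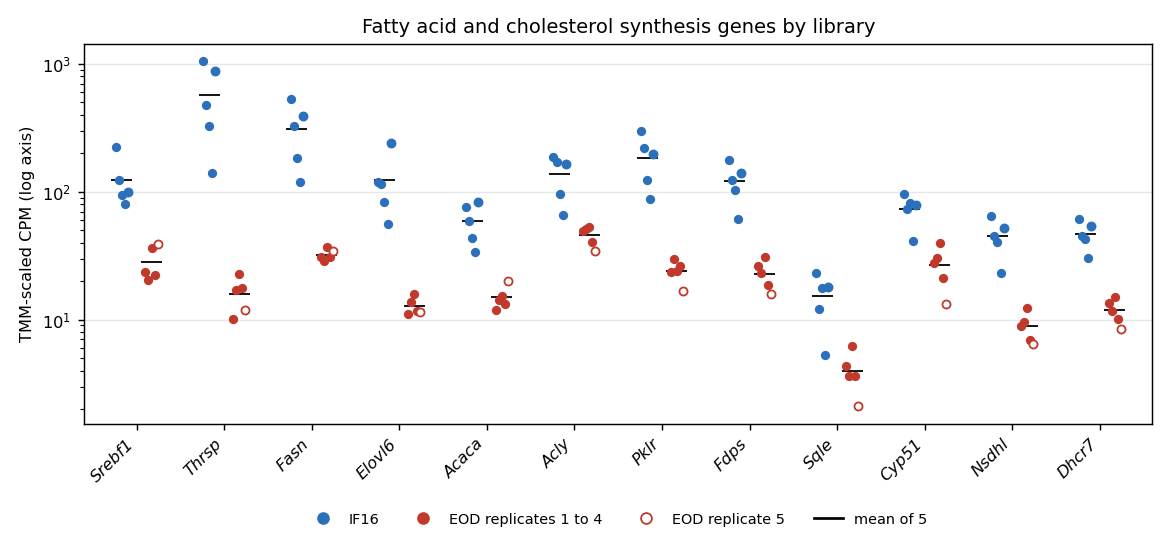
TMM-scaled CPM per library (log axis) of 12 genes of fatty acid and cholesterol synthesis, IF16 in blue and EOD in red, with EOD replicate 5 as an open circle and bars at the mean of 5. Groups are apart for every gene shown except Sqle, where the lowest IF16 library (5.3) is below the highest EOD library (6.17). For Thrsp, Fasn, Elovl6 and Pklr the rule that named the largest decreases required this separation.

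Cholesterol synthesis was lower along the pathway. Of 25 genes, all tested, 17 fell, none rose and 8 did not pass, with a median of -0.87, and the counts without EOD replicate 5 were 17 and 0. Farnesyl diphosphate synthase, Fdps (chr3:89093592-89101967, minus strand), was at 26.2, 23, 31, 18.6 and 15.9 CPM in EOD and 178, 123, 104, 61.2 and 139 in IF16 (log2 fold change -2.40, SE 0.26, adjusted p 0.000194). Nsdhl, which demethylates sterols, was at 8.92, 9.55, 12.4, 6.93 and 6.43 CPM against 65, 44.9, 40.2, 23 and 51.8 (log2 fold change -2.34, SE 0.26, adjusted p 0.000191). Dhcr7, which catalyses a last step of the pathway, was at 13.5, 11.7, 15.1, 10.2 and 8.5 CPM against 60.7, 45.1, 42.7, 30.4 and 53.7 (log2 fold change -1.98, SE 0.19, adjusted p 3.77e-05). In all 3 genes the groups did not overlap, and EOD replicate 5 was the lowest of the 10 libraries.

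Between these, squalene epoxidase Sqle (log2 fold change -1.94, adjusted p 0.00522), lanosterol synthase Lss (log2 fold change -1.21, adjusted p 0.000194), the demethylase Cyp51 (log2 fold change -1.48, adjusted p 0.0048) and Msmo1 (log2 fold change -1.71, adjusted p 0.00933) also fell. In the early steps, Mvd, which forms isopentenyl diphosphate, fell from 8.22, 6.43, 8.13, 5.6 and 9.95 CPM in IF16 to 2.95, 4, 4.61, 3.08 and 2.57 in EOD (log2 fold change -1.16, adjusted p 0.00166). Hmgcs1, which forms HMG-CoA for this pathway, fell by less, with 70.9, 78.8, 87.1, 62.9 and 54.7 CPM in EOD and 85.9, 97.8, 112, 113 and 93.1 in IF16 (log2 fold change -0.50, SE 0.13, adjusted p 0.0195). Its adjusted p was 0.0512 without IF16 replicate 3. Genes that did not pass included the feedback protein Insig1 (log2 fold change -0.56, adjusted p 0.0859), Srebf2 (log2 fold change -0.19, adjusted p 0.34), Idi1, Pmvk, Tm7sf2 and Hsd17b7 (log2 fold change -0.08, adjusted p 0.774). AL libraries held 292, 299, 294, 388 and 373 CPM of Fdps and 82.1, 83.2, 96, 98 and 93.1 of Nsdhl.

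Fatty acid oxidation genes were higher in EOD. Of 42 genes of the PPARA and oxidation list, all tested, 23 rose, 1 fell and 18 did not pass, with a median of 0.43. Without EOD replicate 5, 26 rose and 0 fell. The largest increases were in the Cyp4a family, microsomal enzymes that hydroxylate fatty acids at the omega end and are classic PPARA targets. Cyp4a14 (chr4:115486200-115496142, minus strand) was at 5202, 3908, 2837, 2940 and 3307 CPM in EOD and 141, 468, 547, 734 and 307 in IF16 (log2 fold change 3.05, SE 0.38, adjusted p 6e-04), the largest increase among coding genes that passed without overlap. Cyp4a10 was at 2828, 2012, 1937, 1769 and 2211 CPM against 119, 474, 458, 522 and 240 (log2 fold change 2.57, SE 0.35, adjusted p 0.000805). IF16 replicate 1 was the lowest of the 10 libraries for both. For Cyp4a10 it was below the AL mean of 145 CPM, though the AL libraries ran from 16.8 to 252 CPM. Cyp4a31 rose too (log2 fold change 2.34, adjusted p 0.000196), though the Cyp4a genes are near-identical neighbours, and how reads were split between them was not given in the sources used here.

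Ppara itself rose by a small amount, from 33.9, 37, 34.1, 34.2 and 35.8 CPM in IF16 to 50.6, 45.3, 48.1, 49.5 and 42.4 in EOD (log2 fold change 0.43, SE 0.09, adjusted p 0.00558), with no overlap. In mitochondria, the trifunctional protein genes Hadha (log2 fold change 0.64, adjusted p 0.00842) and Hadhb (log2 fold change 0.91, adjusted p 0.00106) rose together with the acyl-CoA dehydrogenases Acadm (log2 fold change 0.68, adjusted p 0.00172) and Acadvl (log2 fold change 0.99, adjusted p 0.0132) and with Etfdh, which passes their electrons to the respiratory chain (log2 fold change 1.03, adjusted p 0.000347). In peroxisomes, Ehhadh was at 1057, 710, 618, 680 and 397 CPM in EOD and 168, 283, 284, 203 and 197 in IF16 (log2 fold change 1.61, SE 0.23, adjusted p 7e-04). The cytosolic thioesterase Acot1 was at 263, 211, 182, 158 and 108 CPM against 22.4, 50.4, 50.1, 38.5 and 32.1 (log2 fold change 2.25, SE 0.26, adjusted p 0.000246), with EOD replicate 5 the lowest of its group. Its groups did not overlap, which the rule that named the largest increases required. Carnitine acetyltransferase Crat (log2 fold change 1.33, adjusted p 0.0021) and the pantetheinase Vnn1 (log2 fold change 1.46, adjusted p 0.00129) rose as well. Pdk4, which shuts pyruvate out of oxidation, was at 35.4, 17.9, 20.8, 8.98 and 9.56 CPM in EOD and 4.13, 6.01, 7.28, 7.68 and 7.35 in IF16 (log2 fold change 1.52, SE 0.35, adjusted p 0.0135), a call that 3 alternatives ended.

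Several familiar members did not pass. Cpt1a, which controls the entry of fatty acids into mitochondria, was at 304, 308, 252, 260 and 271 CPM in EOD and 291, 294, 239, 221 and 246 in IF16 (log2 fold change 0.11, SE 0.11, adjusted p 0.514). The hormone Fgf21 was at 8.82, 15.7, 7.59, 11.5 and 8.87 CPM against 1.69, 6.16, 6.92, 9.58 and 3.82 (log2 fold change 0.90, SE 0.37, adjusted p 0.112), and IF16 replicate 4 lay inside the EOD range. It passed without that library. The 1 member that fell, Fabp1, the abundant fatty acid binding protein, was at 2678, 5018, 3892, 5099 and 2685 CPM in EOD and 4604, 6012, 6831, 6061 and 5779 in IF16 (log2 fold change -0.60, SE 0.19, adjusted p 0.0436), and 8 alternatives ended its call, among them leaving out EOD replicate 5.

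Plin5 and Plin2, which encode coat proteins of lipid droplets, were higher. Plin5 was at 132, 89.8, 86, 133 and 140 CPM in EOD and 33.5, 52.3, 52.3, 81.8 and 50.2 in IF16 (log2 fold change 1.10, SE 0.21, adjusted p 0.00434), and Plin2 at 619, 697, 536, 607 and 344 against 221, 399, 340, 245 and 229 (log2 fold change 0.97, SE 0.20, adjusted p 0.00657), where EOD replicate 5 lay within the IF16 range. Of the 18 tested members of the droplet and lipolysis list (of 20), 4 rose and 1 fell, and without EOD replicate 5 it was 8 and 2; without IF16 replicate 5 or EOD replicate 2 the counts were 3 and 0. In ketone body metabolism 4 of 10 genes rose and 2 fell. Slc16a1, the transporter that carries ketone bodies and lactate, was at 91.2, 117, 91, 92.2 and 59.3 CPM in EOD and 27.2, 40.6, 41.8, 47.3 and 24.3 in IF16 (log2 fold change 1.31, SE 0.20, adjusted p 0.00107). The 2 that fell were Bdh2 (log2 fold change -1.19, adjusted p 0.000106), a cytosolic dehydrogenase, and Aacs (log2 fold change -1.69, adjusted p 0.00718), which returns acetoacetate to lipid synthesis.

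**Figure D4:**
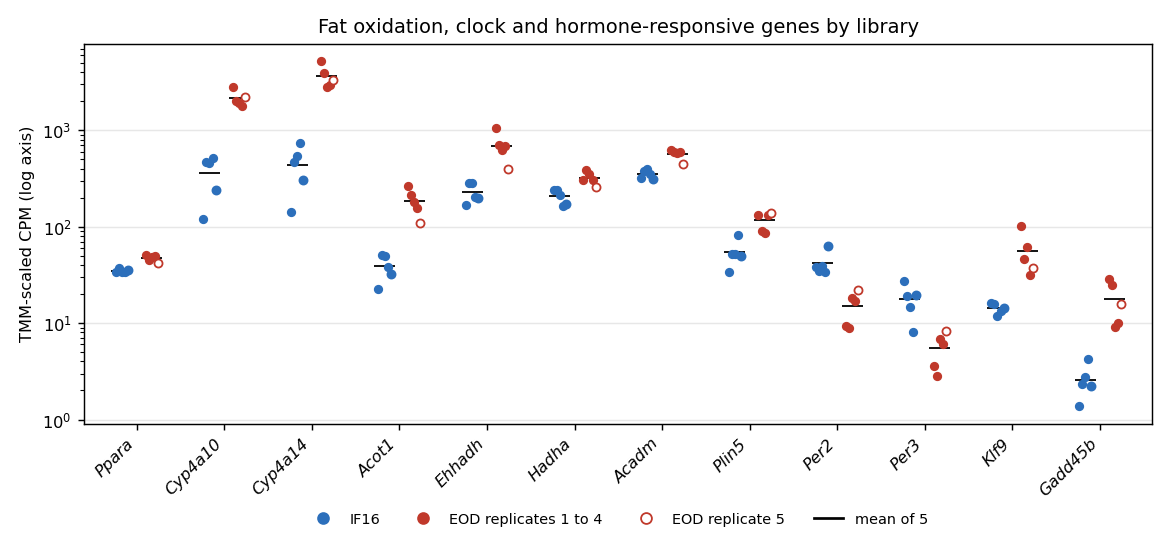
TMM-scaled CPM per library (log axis) of 12 genes of fat oxidation, lipid droplets, the clock and hormone response, IF16 in blue and EOD in red, with EOD replicate 5 as an open circle and bars at the mean of 5. For the genes higher in EOD the open circle is often the lowest EOD point, as for Acot1 (108 CPM) and Ehhadh (397 CPM). Per2 and Per3 are lower in EOD.

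Lipid transport and fatty acid activation held calls in both directions. Of 29 tested lipoprotein genes (of 30), 6 rose and 1 fell, or 24.1% against 16.6% of all genes. Without IF16 replicate 3 or 4 or EOD replicate 1 or 2 the counts were 3 and 1. Scarb1, the receptor that takes up HDL cholesterol, was at 193, 149, 189, 156 and 165 CPM in EOD and 113, 119, 116, 130 and 110 in IF16 (log2 fold change 0.53, SE 0.10, adjusted p 0.00407). Lcat, which esterifies cholesterol in plasma, rose (log2 fold change 0.51, adjusted p 0.00384), and so did the E3 ligase gene Mylip (log2 fold change 0.68, adjusted p 0.00527). Soat2, which esterifies cholesterol inside the cell, was the 1 that fell (log2 fold change -0.54, adjusted p 0.00273). Of 21 tested genes of fatty acid uptake and activation (of 22), 6 rose and 5 fell. Cd36, a fatty acid translocase, was at 126, 105, 93.6, 89 and 71.5 CPM against 49.2, 59, 57.9, 49.6 and 48.8 (log2 fold change 0.88, SE 0.14, adjusted p 0.00112), and its call and that of Fabp5 were lost when the AL libraries joined the fit. The transporter Slc27a1 (log2 fold change 1.08, adjusted p 0.00284) and the peroxisomal thioesterase Acot8 (log2 fold change 1.03, adjusted p 0.000529) rose, while Acsl3 (log2 fold change -1.01, adjusted p 0.00497) and the binding protein Fabp5 (log2 fold change -1.81, adjusted p 0.00614) fell. Of 36 peroxisome genes 7 rose and 2 fell (25%), and 11 rose and 3 fell without EOD replicate 5. Crot, which hands shortened fatty acids from peroxisomes to carnitine, rose (log2 fold change 1.40, adjusted p 0.00617), and Hacl1, of alpha-oxidation, rose (log2 fold change 0.88, adjusted p 0.018).

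Genes that bring sugar into glycolysis were mostly lower where they passed. Of 26 genes of the glycolysis list, 9 fell and 2 rose, with a median of -0.35, and without EOD replicate 5 the counts were 8 and 3. The glucose transporter of hepatocytes, Slc2a2, was at 83.2, 104, 103, 99.2 and 88.9 CPM in EOD and 309, 223, 197, 155 and 206 in IF16 (log2 fold change -1.19, SE 0.16, adjusted p 0.000393). Pyruvate kinase, Pklr, a target of ChREBP, was at 23.5, 29.9, 24.1, 26.1 and 16.7 CPM against 297, 220, 123, 88.3 and 196 (log2 fold change -2.94, SE 0.30, adjusted p 0.000191). Dak (triokinase, which phosphorylates glyceraldehyde from fructose) was at 137, 145, 123, 142 and 168 CPM against 691, 692, 545, 617 and 693 (log2 fold change -2.18, SE 0.11, adjusted p 1.15e-07), with an AL mean of 692. The spread within each group was small, and the AL level was that of IF16. Gapdh (log2 fold change -0.66, adjusted p 0.00101), Eno1 (log2 fold change -0.56, adjusted p 0.00418) and Gpi1 (log2 fold change -0.56, adjusted p 0.00558) fell by less, and Pdp2 and Pdk4, regulators of pyruvate dehydrogenase, were the 2 that rose. Gapdh, often used as a reference gene, was lower in all 5 EOD libraries than in any IF16 library.

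The main enzymes of glycogen were lower as well. Glycogen synthase, Gys2, was at 62.8, 109, 93.9, 110 and 111 CPM in EOD and 300, 220, 207, 149 and 240 in IF16 (log2 fold change -1.20, SE 0.19, adjusted p 0.00112). Glycogen phosphorylase, Pygl, which breaks glycogen down, was at 140, 190, 186, 204 and 157 CPM against 301, 388, 332, 305 and 322 (log2 fold change -0.91, SE 0.12, adjusted p 0.00041). In both genes the groups did not overlap. In all, 3 of 15 tested glycogen genes (of 16) fell and 1 rose (26.7%), and 6 fell and 1 rose without EOD replicate 5. For gluconeogenesis the list split: 2 of 17 rose and 2 fell, or 23.5% against 16.6% of all genes. Leaving out IF16 replicate 2 or 5 or EOD replicate 2 or 3 reduced the 4 calls to 2 or 1. Ldha, which interconverts pyruvate and lactate, was at 996, 1389, 1139, 1070 and 817 CPM in EOD and 471, 671, 570, 581 and 426 in IF16 (log2 fold change 0.99, SE 0.15, adjusted p 0.001) and kept its call in all 19 alternatives. Pck1, the entry enzyme, did not pass, at 3232 CPM (SD 623) in EOD and 3705 (SD 372) in IF16 (log2 fold change -0.20, adjusted p 0.319). G6pc, the last step, fell (log2 fold change -0.67, adjusted p 0.0396), but 11 alternatives ended its call.

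Ldha has 2 RefSeq promoter windows, and the window printed was chosen for holding 2 of the elements searched. Its start lies inside the gene bounds given with the counts (chr7:46841475-46855627). The cyclic AMP response element, TGACGTCA, was held by 2.47% of the windows of tested genes, by 3.97% of those of genes higher in EOD (42 of 1059) and by 1.4% of those of genes lower in EOD (14 of 1000). The E-box CACGTG was held by 8.16%, 8.88% and 8.3%. In the stretch up to the start used for this window, with both elements in capitals, TGACGTCA begins 12 bases and CACGTG 48 bases before that start.
Ldha (chr7:46845664-46845803, plus strand): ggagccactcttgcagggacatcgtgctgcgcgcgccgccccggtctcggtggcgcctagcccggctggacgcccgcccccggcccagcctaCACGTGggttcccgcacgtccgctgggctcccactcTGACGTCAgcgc

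Clock genes differed in both directions. Of 26 genes, 5 fell and 1 rose (23.1%, against 16.6% of all genes), with a median of -0.27. Without EOD replicate 5, 7 fell and 3 rose. The repressor Per2 was at 9.44, 8.8, 18.2, 16.8 and 21.8 CPM in EOD and 38.3, 34.3, 39.4, 33.6 and 62.8 in IF16 (log2 fold change -1.48, SE 0.26, adjusted p 0.00333), with no overlap. Per3 (chr4:151003652-151044665, minus strand) was at 3.63, 2.81, 6.81, 6 and 8.22 CPM against 27.4, 19.2, 14.8, 8.06 and 19.8 (log2 fold change -1.71, SE 0.34, adjusted p 0.0071), where EOD replicate 5 slightly exceeded IF16 replicate 4. Clock, a subunit of the activator that the PER proteins repress, was at 28.4, 26.6, 21.6, 19 and 23.1 CPM against 7.75, 12.4, 12.5, 16.4 and 11 (log2 fold change 0.98, SE 0.17, adjusted p 0.00224) and was higher in every EOD library. The repressor Bhlhe40 fell (log2 fold change -1.11, adjusted p 0.00763).

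Other core members had large differences that did not pass. Arntl (BMAL1, the partner of CLOCK) was at 17.4, 12.1, 8.79, 6.53 and 6.9 CPM in EOD and 1.72, 4.93, 3.74, 9.77 and 2.3 in IF16 (log2 fold change 1.20, SE 0.45, adjusted p 0.0908). Dbp, an output factor of the clock, was at 3.34, 8.67, 16, 16.2 and 14.3 CPM against 62.3, 29.7, 21.1, 7.07 and 36.3 (log2 fold change -1.43, SE 0.56, adjusted p 0.107). In both genes IF16 replicate 4 lay within the range of the EOD libraries, while the other 4 IF16 libraries lay below every EOD library for Arntl and above every EOD library for Dbp. Without IF16 replicate 4 both passed. Nr1d1, Nr1d2, Cry1, Cry2 and Per1 did not pass either, with log2 fold changes of 0.64, 0.07, -0.23, -0.30 and -0.25. AL libraries held 28.2, 53.6, 24.2, 23.5 and 22.9 CPM of Per3 and 9.35, 6.24, 8.92, 7.99 and 8.51 of Clock. The Per3 promoter holds 2 D-boxes (TTANGTAA, the element of DBP and its relatives, held by 1.4% of the windows of tested genes), in capitals here, and it was the only clock gene window of 27 with one.
Per3 (chr4:151044676-151044915, minus strand): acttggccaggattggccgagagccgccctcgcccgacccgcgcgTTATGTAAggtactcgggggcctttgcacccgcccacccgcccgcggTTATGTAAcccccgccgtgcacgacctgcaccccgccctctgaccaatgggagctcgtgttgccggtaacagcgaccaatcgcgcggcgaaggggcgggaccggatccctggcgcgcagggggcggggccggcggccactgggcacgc

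Among genes that respond to glucocorticoids or stress, Klf9, a transcription factor that glucocorticoids induce, was at 102, 46.5, 62.1, 31.8 and 37 CPM in EOD and 16.1, 15.7, 11.9, 13.3 and 14.5 in IF16 (log2 fold change 1.97, SE 0.28, adjusted p 0.000893). Gadd45b, a stress-inducible regulator of growth arrest, was at 28.7, 24.9, 9.15, 10 and 15.9 CPM against 1.37, 2.31, 2.79, 4.2 and 2.22 (log2 fold change 2.78, SE 0.38, adjusted p 0.00079). The groups were apart in both genes, which the rule that named the largest increases required. Few other genes of the glucocorticoid list passed: of 19, Klf9 and Errfi1 rose and Serpina6, the carrier of corticosteroids in blood, fell (log2 fold change -0.79, adjusted p 0.0071). These calls were 15.8% of the list, against 16.6% of all genes. Of 19 alternatives 7 ended the call of Errfi1. Tsc22d3, Tat and Per1 had log2 fold changes of -0.01, -0.05 and -0.25, none past the threshold. Fkbp5 spread widely, at 46.3, 18.9, 18.5, 33.5 and 93 CPM in EOD and 28.5, 12.5, 12.2, 28.1 and 30.3 in IF16 (log2 fold change 0.91, adjusted p 0.221), with EOD replicate 5 the highest of the 10. Of the insulin and growth hormone genes, 2 of 28 rose and 1 fell, or 10.7% against 16.6% of all genes. Igfbp2, which binds insulin-like growth factors in plasma, rose (log2 fold change 0.82, adjusted p 0.00167), Trib3 rose (log2 fold change 0.86, adjusted p 0.00589) and Foxo3 fell (log2 fold change -0.56, adjusted p 0.00718). Igf1 was at 541 CPM (SD 63.2, n = 5) in EOD and 658 (SD 109, n = 5) in IF16 and did not pass (log2 fold change -0.28, adjusted p 0.136). Leaving out EOD replicate 3 gave 4 risen and 1 fallen gene in this list, and leaving out EOD replicate 5 gave 3 and 3.

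Genes of bile acid and drug metabolism moved in both directions. Cyp7a1, the rate-limiting enzyme of bile acid synthesis, was at 18.1, 20, 15.4, 24.7 and 15.7 CPM in EOD and 110, 41.6, 38.8, 47.8 and 49.2 in IF16 (log2 fold change -1.61, SE 0.27, adjusted p 0.00274). IF16 replicate 1 was more than 2-fold above the rest of its group, and the lowest IF16 library was above every EOD library. The other genes of bile acid synthesis gave 3 higher and 1 lower of 15, of which Nr5a2, a nuclear receptor that activates Cyp7a1, rose (log2 fold change 0.67, adjusted p 0.00732). Leaving out any of IF16 replicates 3 and 5 or EOD replicates 1 to 4 reduced the 5 calls of this list to 2 or 3. Among transporters, 6 of 17 tested genes (of 19) fell, with Abcg2 (log2 fold change -0.69, adjusted p 0.00167) and Slco2b1 (log2 fold change -0.71, adjusted p 0.00121) the clearest, and 2 rose, with Abcb4, the phospholipid exporter of bile, the clearest (log2 fold change 0.53, adjusted p 0.00899). Without IF16 replicate 3 or 5, 4 fell and 1 rose.

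Cytochromes P450 of drug metabolism split as well, 5 higher and 6 lower of 31 tested, or 35.5% against 16.6% of all genes. Cyp1a2 was at 351, 296, 388, 324 and 402 CPM in EOD and 906, 777, 816, 793 and 779 in IF16 (log2 fold change -1.21, SE 0.11, adjusted p 2.73e-05), with all 5 EOD libraries below IF16. In the opposite direction, Cyp3a11, a target of the pregnane X receptor, was at 8852, 6861, 8393, 8375 and 6218 CPM against 2793, 4232, 5353, 3819 and 3194 (log2 fold change 1.0, SE 0.17, adjusted p 0.00174). Cyp2e1, which also metabolises acetone, rose (log2 fold change 0.58, adjusted p 0.00226), and so did Cyp3a25 (log2 fold change 0.79, adjusted p 0.000347), while Cyp2c70 fell (log2 fold change -1.0, adjusted p 7e-04).

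Glutathione S-transferases, which couple glutathione to reactive compounds, made up most of the conjugation enzymes that fell. Of 38 tested genes of that list (of 40), 11 fell, 9 of them glutathione S-transferases and 2 sulfotransferases, and 2 rose, the glycosyltransferases Ugt3a1 (log2 fold change 1.51, adjusted p 0.00718) and Ugt1a9. Calls thus made up 34.2% of the tested list, against 16.6% of all genes. Gstm3 (chr3:107963696-107969283, minus strand) had the smallest p-value of all genes, at 6.05, 7.18, 4.5, 5.43 and 7.78 CPM in EOD and 65.1, 74.7, 56.5, 46.1 and 69.8 in IF16 (log2 fold change -3.33, SE 0.17, adjusted p 1.15e-07). Its AL libraries held 56.2, 50.2, 53.6, 35.3 and 45.1 CPM. Gsta1 was at 4.07, 2.46, 3.51, 4.17 and 3.89 CPM against 17, 18.7, 18.8, 10.3 and 20 (log2 fold change -2.23, SE 0.19, adjusted p 2.15e-05). Gstm6 (log2 fold change -0.99, adjusted p 0.000191), Gstm2 (log2 fold change -0.98, adjusted p 0.00115) and Gstm1 (log2 fold change -0.62, adjusted p 0.00446) fell by less. Members of the Gstm and Gsta families are close in sequence, so their split is uncertain. Of the 19 tested targets of the antioxidant regulator NRF2, 5 fell, 2 of them these same transferases, and Gclc, Gclm, Txnrd1 and Srxn1 did not pass, with log2 fold changes of 0.40, 0.00, 0.26 and 0.27. With all libraries 26.3% of the NRF2 list passed, against 16.6% of all genes. Without IF16 replicate 5, 3 of this list fell.

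Of 46 genes of amino acid breakdown 11 rose and 4 fell; without EOD replicate 1 or 2 it was 8 and 1, and without EOD replicate 5 12 and 9. Tdo2, which opens the tryptophan ring, was at 1693, 1709, 1656, 1589 and 1262 CPM in EOD and 1128, 1031, 887, 821 and 798 in IF16 (log2 fold change 0.76, SE 0.13, adjusted p 0.00161). Several genes of glycine metabolism rose: Gldc (log2 fold change 0.98, adjusted p 0.00162) and Amt (log2 fold change 0.75, adjusted p 0.00718) of the glycine cleavage system, and Agxt (log2 fold change 0.85, adjusted p 0.00133), which makes glycine from glyoxylate. Glud1, which frees ammonia from glutamate, rose (log2 fold change 0.52, adjusted p 0.00718). In the urea cycle 2 of 9 genes rose, or 22.2% against 16.6% of all genes. Of these, the ornithine carrier Slc25a15 kept its call in all alternatives (log2 fold change 0.66, adjusted p 0.00718) and Cps1 lost it in 13 (log2 fold change 0.45, adjusted p 0.0422). Leaving out IF16 replicate 2, 3, 4 or 5 or EOD replicate 1, 3 or 4 gave 1 risen gene in this list, and leaving out EOD replicate 5 gave 4.

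Genes of the methionine cycle and its outlets rose while others of one-carbon metabolism fell, 6 and 5 of 24. These calls were 45.8% of the list, against 16.6% of all genes. Mat1a, which makes S-adenosylmethionine, was at 4222, 3366, 3436, 3239 and 3902 CPM in EOD and 1990, 2582, 2282, 2571 and 2423 in IF16 (log2 fold change 0.62, SE 0.11, adjusted p 0.00298). The methyl consumers Gnmt (log2 fold change 1.0, adjusted p 0.00819) and Nnmt (log2 fold change 1.08, adjusted p 0.00292) rose, and so did Cbs (log2 fold change 0.71, adjusted p 0.00994) and Cth (log2 fold change 1.05, adjusted p 0.00041), the 2 steps from homocysteine to cysteine. Gamt, which spends a methyl group on creatine, went the other way, at 100, 125, 147, 165 and 144 CPM against 406, 405, 420, 441 and 463 (log2 fold change -1.65, SE 0.13, adjusted p 6.7e-06). Aldh1l1 (log2 fold change -0.95, adjusted p 0.000191) and Shmt2 (log2 fold change -0.46, adjusted p 0.0055) of folate metabolism fell.

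Genes of protein synthesis and turnover that passed were higher. Of 79 ribosomal protein genes, 24 rose, none fell and 55 did not pass, with a median of 0.31. This count rested on the libraries used: it was 44 without EOD replicate 5, and 14 or 15 without IF16 replicate 4 or 5 or EOD replicate 3 or 4. Rplp0, of the ribosomal stalk, was at 845, 774, 1148, 819 and 446 CPM in EOD and 448, 464, 492, 428 and 451 in IF16 (log2 fold change 0.82, SE 0.18, adjusted p 0.00862), and EOD replicate 5 was below all IF16 libraries but replicate 4. Rps3a1, by contrast, was higher in every EOD library (log2 fold change 0.54, adjusted p 0.00449). In the proteasome list 10 of 31 genes rose and none fell, with a median of 0.18, while 6 rose without IF16 replicate 5 and 12 rose and 1 fell without EOD replicate 5. Psmd7 was at 91.5, 82.3, 84, 73.9 and 57.9 CPM against 47.1, 48.7, 52.6, 49 and 45.6 (log2 fold change 0.68, SE 0.12, adjusted p 0.00218). Of 22 heat shock genes 10 rose and none fell, 6 without IF16 replicate 3 or EOD replicate 1 and 11 without EOD replicate 5. They were cytosolic chaperones and their helpers: Hsp90ab1 was at 1150, 1058, 1143, 1093 and 946 CPM in EOD and 650, 749, 641, 788 and 805 in IF16 (log2 fold change 0.57, SE 0.10, adjusted p 0.00307), and Hsp90aa1 (log2 fold change 0.81, adjusted p 0.00532), Hspa8 (log2 fold change 0.63, adjusted p 0.0058), Stip1 (log2 fold change 0.58, adjusted p 0.00842) and Ahsa1 (log2 fold change 0.52, adjusted p 0.0045) rose.

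Chaperones of the endoplasmic reticulum and the unfolded protein response, in contrast, gave no call among 24 genes, with a median of -0.11. By edgeR, 3 of them had an unadjusted p under 0.05, and DESeq2's Wald test called 1, lower. Without EOD replicate 3 edgeR called 1 lower gene, and without EOD replicate 5 1 higher. Hspa5 (BiP) was at 613, 690, 493, 401 and 425 CPM in EOD and 465, 397, 425, 507 and 615 in IF16 (log2 fold change 0.12, SE 0.16, adjusted p 0.642). Whether the cytosolic and endoplasmic reticulum lists differ from each other was not tested.

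Autophagy and lysosome genes leaned higher. Gabarapl1, which coats autophagosomes, was at 685, 718, 712, 545 and 474 CPM in EOD and 261, 272, 224, 232 and 220 in IF16 (log2 fold change 1.37, SE 0.13, adjusted p 3.56e-05). The cargo receptor Sqstm1 (p62) was at 542, 537, 464, 437 and 465 CPM against 266, 334, 320, 323 and 275 (log2 fold change 0.69, SE 0.11, adjusted p 0.00102). Both groups of 5 were apart in these genes, as they were for Map1lc3b (log2 fold change 0.64, adjusted p 0.00273) and Map1lc3a (log2 fold change 0.74, adjusted p 0.00492). In all, 6 of 32 autophagy genes rose and 1 fell, or 21.9% against 16.6% of all genes. Without EOD replicate 5 the counts were 14 and 3. Of 27 lysosome genes 7 rose and 2 fell (33.3%), and without that library 12 and 2. The protease Ctsl (log2 fold change 0.61, adjusted p 0.000793) and the membrane protein Lamp2 (log2 fold change 0.60, adjusted p 0.00509) rose, and Atp6v0a1, a subunit of the proton pump, fell (log2 fold change -0.70, adjusted p 0.00394).

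Transcripts of the mitochondrial genome were lower. Of 12 tested (of 13), 9 fell, none rose, and the median was -0.70; without EOD replicate 5 it was 11 and the median -0.86. mt-Nd4, of complex I, was at 5076, 5163, 4183, 4999 and 9410 CPM in EOD and 7865, 8825, 10305, 13934 and 10862 in IF16 (log2 fold change -0.85, SE 0.21, adjusted p 0.016), and mt-Co1, of complex IV, at 27155, 25825, 24226, 24124 and 32787 against 32432, 36913, 42709, 37719 and 44645 (log2 fold change -0.54, SE 0.12, adjusted p 0.00985). EOD replicates 1 to 4 were below all IF16 libraries in both, and replicate 5 was not. Genes for respiratory chain subunits in the nucleus did not move with them: 5 of 75 rose and 5 fell, a share of 13.3% against 16.6% of all genes, and the median was 0.02. Leaving out any library but IF16 replicate 1 moved their 10 calls by more than 1.5 times, from 2 without IF16 replicate 4 or EOD replicate 2 to 17 without EOD replicate 5 (12 higher and 5 lower).

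Where EOD replicate 5 lay between the groups depended on the gene list. For each library, the genes called without it were taken, and its log2 level was placed on a scale from 0, the mean of the other group, to 1, the mean of the rest of its own group. Over all such genes the median position was 1.12, 1.01, 1.03, 0.82 and 0.31 for EOD replicates 1 to 5 (1485 to 3678 genes), and 0.85 to 1.08 for the IF16 libraries. For the cholesterol genes EOD replicate 5 lay at 1.58, beyond the other EOD libraries (17 genes), and for lipogenesis at 1.08 (17 genes). It lay at 0.47 for fat oxidation (26 genes), 0.31 for the proteasome (13), 0.23 for the lysosome (14), 0.12 for mitochondrial transcripts (11), 0.05 for autophagy (17) and -0.04 for ribosomal proteins (44). The other EOD libraries lay between 0.5 and 1.76 in these lists. Of lists not plotted, EOD replicate 5 lay at -0.14 for the nuclear respiratory chain genes (17), 0.04 for gluconeogenesis (5) and 0.17 for lipid droplets and lipolysis (10). Positions of IF16 libraries also varied by list. IF16 replicate 4 lay at 0.34 for the clock (9 genes), 0.46 for cholesterol (18), 0.57 for lipogenesis (15) and 1.23 for ribosomal proteins (15). IF16 replicate 1 lay at 0 for the nuclear respiratory chain genes (12), 0.5 for mitochondrial transcripts (12) and 2.03 for heat shock (8). Among the plotted lists, EOD replicate 5 was thus like its group in lipid synthesis and near IF16 in ribosomal, autophagy and mitochondrial transcripts. These positions describe single libraries and carry no test.

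**Figure D5:**
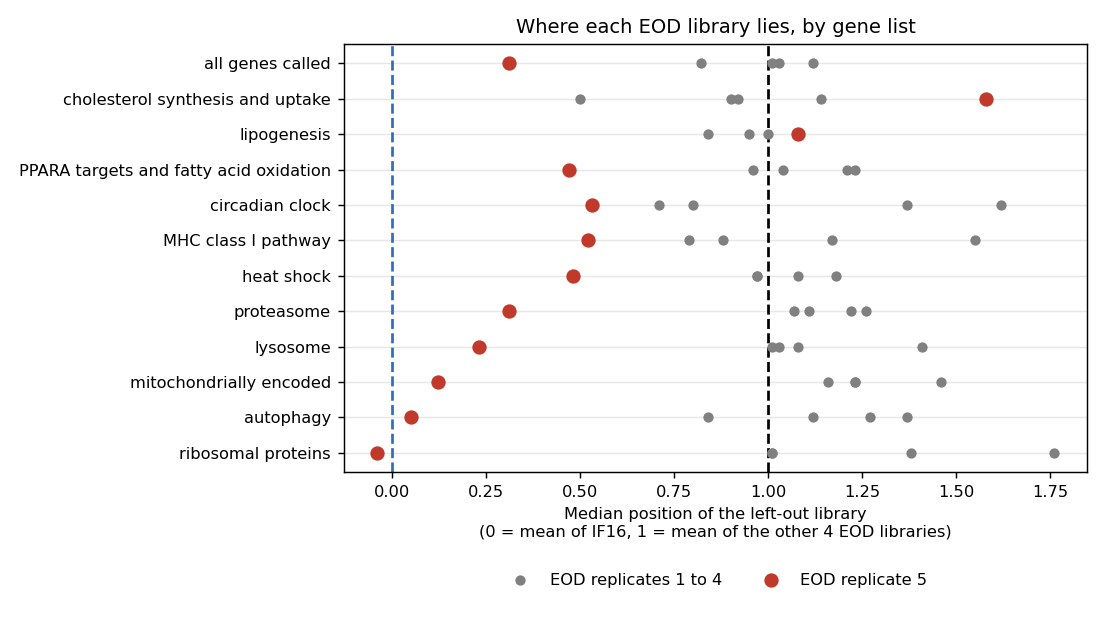
Median position of each EOD library over the genes called without it, by gene list, where 0 is the mean of the 5 IF16 libraries and 1 the mean of the other 4 EOD libraries. Among the lists shown, EOD replicate 5 (red) runs from 1.58 for cholesterol synthesis to -0.04 for ribosomal proteins, and the other EOD libraries (grey) from 0.5 to 1.76.

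For other lists the counts without EOD replicate 5 were as follows, higher first. Ketone body genes gave 4 and 2, gluconeogenesis 3 and 2, lipoprotein genes 8 and 1 and fatty acid uptake 6 and 4. Bile acid synthesis gave 5 and 2, transport 3 and 6, P450 genes 5 and 8, conjugation 6 and 12 and NRF2 targets 2 and 5. Methionine and one-carbon genes gave 8 and 6. The ATF4 list gave 2 and 2, the AMPK list 2 and 3, iron genes 5 and 3, and liver hormones 3 and 6. Glucocorticoid-responsive genes gave 3 and 1, acute phase genes 8 and 3 and stellate cell markers 2 and 0.

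The MHC class I genes that passed were lower. All 19 genes of the MHC class I list had a negative log2 fold change, 7 fell and the median was -0.25; without EOD replicate 5, 8 fell. Those that fell include the immunoproteasome subunits Psmb9 (log2 fold change -0.91, adjusted p 0.00273), Psmb10 (log2 fold change -0.81, adjusted p 0.00068) and Psmb8 (log2 fold change -0.62, adjusted p 0.00672), which replace constitutive subunits, while no proteasome gene of the constitutive list fell. Tap2, a subunit of the peptide transporter, was at 5.43, 7.09, 6.45, 7.75 and 9.66 CPM in EOD and 14.3, 14.6, 14.3, 13.5 and 15 in IF16 (log2 fold change -0.98, SE 0.14, adjusted p 0.000552), and its partner Tap1 did not pass (log2 fold change -0.06, adjusted p 0.849). The class I heavy chains H2-K1 and H2-D1 did not pass, with log2 fold changes of -0.13 and -0.03. Interferon-responsive genes gave 2 higher and 3 lower of 42, or 11.9% against 16.6% of all genes, with Rsad2 higher (log2 fold change 0.93, adjusted p 0.00593) and Gbp7 lower (log2 fold change -1.12, adjusted p 0.00218), and 3 and 7 without EOD replicate 5. No class II gene passed of 7, 0 had an unadjusted p under 0.05 by edgeR, and DESeq2's Wald test called 0.

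Acute phase genes gave 7 higher and 3 lower of 28. Crp was at 393, 478, 404, 358 and 379 CPM in EOD and 239, 286, 252, 258 and 249 in IF16 (log2 fold change 0.65, SE 0.10, adjusted p 0.00116), and the fibrinogen chain Fgg rose (log2 fold change 0.71, adjusted p 0.00226), a call that 1 alternative ended. The hepcidin gene Hamp, which limits iron uptake, fell from 2447, 2558, 2541, 3595 and 1910 CPM in IF16 to 1713, 1702, 1357, 1750 and 1687 in EOD (log2 fold change -0.67, SE 0.15, adjusted p 0.0082), a call that 1 alternative ended. Without IF16 replicate 5 the list gave 4 higher and 2 lower. The major inflammation markers Saa1 and Saa2 did not pass, with log2 fold changes of -0.85 and -1.01 (adjusted p 0.368 and 0.102). Few replication genes passed: Rrm1 (log2 fold change -0.76, adjusted p 0.00167) and Rrm2 (log2 fold change -1.15, adjusted p 0.00132), the subunits of ribonucleotide reductase, and Tyms (log2 fold change -0.48, adjusted p 0.0299) fell, of 23 tested of 29. These calls were 13% of those tested, against 16.6% of all genes. Without IF16 replicate 4, 5 fell, and without EOD replicate 5, 6 fell and 1 rose.

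Genes outside these themes were among the largest changes. Hcn3, a cation channel, was at 2.11, 2.37, 1.21, 4.21 and 2.13 CPM in EOD and 52.6, 37.7, 28, 22.5 and 49.2 in IF16 (log2 fold change -3.98, SE 0.33, adjusted p 3.56e-05), with AL at 56.1, 89.4, 57.9, 32 and 23.5. Its bounds (chr3:89146074-89160196, minus strand) overlap those of the glycolysis gene Pklr (chr3:89136142-89146784, plus strand). The kit does not mark strand, so reads from the shared stretch cannot be told apart. The part of Pklr reads in the Hcn3 levels was not tested. The nicotinic receptor subunit Chrna4 was at 0.13, 0.442, 0.39, 0.364 and 0.251 CPM against 4.87, 5.68, 3.87, 1.04 and 7.67 (log2 fold change -3.88, SE 0.49, adjusted p 0.000461). Slc2a4, the insulin-regulated glucose transporter of muscle and fat, was at 0.157, 0.0552, 0.0709, 0.0663 and 0.188 CPM against 1.22, 1.44, 0.787, 0.375 and 2.2 (adjusted p 0.000735), and Erdr1 at 0.809, 0.69, 0.0355, 0.53 and 0.0314 CPM against 3.65, 8.87, 6.06, 7.66 and 4.23 (adjusted p 0.00101). In EOD these last levels include some below the level of 3 counts in a library (0.0794 to 0.101 CPM), so no fold is given. AL libraries held 2.69, 3.73, 1.74, 0.484 and 0.644 CPM of Slc2a4 and 0.887, 8.57, 3.92, 0.0346 and 0 of Erdr1. For Erdr1 the AL libraries thus ran from below every EOD library into the range of IF16. The acetyltransferase genes Cml5 (log2 fold change -3.45, adjusted p 2.63e-06) and Nat8 (log2 fold change -2.22, adjusted p 2.63e-06), which are close in sequence, fell together. Nat8 was at 14.4, 12.1, 21.4, 18.6 and 13.3 CPM in EOD and 80.6, 82.8, 74.6, 60.2 and 72.7 in IF16.

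On the higher side, the kinase Sgk2 was at 95.6, 86.3, 74.3, 68.9 and 80.2 CPM in EOD and 14.9, 17.5, 18.7, 20.4 and 10.7 in IF16 (log2 fold change 2.30, SE 0.16, adjusted p 2.63e-06), with an AL mean of 39.5. Nlrp12, an inhibitory member of the NOD-like receptors, was at 195, 130, 125, 165 and 119 CPM against 22.8, 36.9, 41.3, 50.9 and 30.3 (log2 fold change 2.01, SE 0.20, adjusted p 6.67e-05). Cyp26b1, which degrades retinoic acid, was at 13.4, 6.32, 12.7, 9.08 and 12 CPM against 1.9, 1.92, 2.29, 3.21 and 3.69 (log2 fold change 2.03, SE 0.24, adjusted p 0.000191). Npnt, a matrix protein, rose from low levels (log2 fold change 2.40, adjusted p 0.0103). In none of these genes did the groups overlap, which the naming rule required.

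Few markers of other liver cells passed. No marker of Kupffer cells (13 genes), sinusoidal endothelium (15 tested of 16), cholangiocytes (6 tested of 9), neutrophils (3 of 10) or erythroid cells (6 of 8) passed, and of these 0, 3, 2, 1 and 0 had an unadjusted p under 0.05 by edgeR. DESeq2's Wald test called 1 endothelial and 1 cholangiocyte gene, both higher. Summed Kupffer cell markers ran from 208 to 495 CPM in EOD and from 201 to 539 in IF16. Of 12 stellate cell markers 3 rose, or 25% against 16.6% of all genes. They were Dcn (log2 fold change 0.59, adjusted p 0.0129), Hgf (log2 fold change 0.88, adjusted p 0.0248) and Pdgfra (log2 fold change 0.53, adjusted p 0.0485). The summed level of the stellate list was 328 to 474 CPM in EOD and 335 to 369 in IF16. Without IF16 replicate 3 or 5 or EOD replicate 2 or 3 only 1 rose. Of 19 alternatives, 16 ended the call of Pdgfra and 7 that of Hgf. The T cell gene Cd4 (log2 fold change -0.91, adjusted p 0.0384) and the plasma cell gene Mzb1 (log2 fold change -1.23, adjusted p 0.0441) fell, at levels near or under 1 CPM, in lists with medians of -0.17 and -0.30, and 10 and 9 of the 16 alternatives that tested them ended these calls. These calls were 16.7% of the 6 T and NK cell genes tested and 11.1% of the 9 B and plasma cell genes. In EOD replicate 5 Mzb1 was below the level of 3 counts. The part of such cells in the lower values of the MHC class I genes was not tested. Of the adipocyte list only Cfd and Car3, which liver also expresses, were measurable, and the defining genes Adipoq, Lep and Plin1 had too few counts to be tested. Car3 fell without overlap (log2 fold change -0.69, adjusted p 0.0262), a call that 4 of 19 alternatives ended, and Cfd did not pass. Hepatocyte markers gave 2 higher and 2 lower of 8 (50%), and leaving out 1 library at a time gave 1 to 4 calls.

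Further calls fell among secreted factors and stress regulators, in some lists no more often than among all genes. Of 23 liver hormone genes 3 rose and 3 fell (26.1%), and without IF16 replicate 5 or EOD replicate 3 none rose and 3 fell. Lect2, a hepatokine, was at 72.3, 83, 115, 83.8 and 72.3 CPM in EOD and 152, 174, 171, 169 and 174 in IF16 (log2 fold change -0.98, SE 0.13, adjusted p 0.000347), with no overlap. Gdf15, a stress-induced hormone that curbs appetite, rose (log2 fold change 1.19, adjusted p 0.037). Of 24 tested targets of the stress factor ATF4 (of 26), 3 rose and 1 fell (16.7%, against 16.6% of all genes), and Atf5 was at 429, 581, 287, 305 and 451 CPM against 90.9, 210, 148, 301 and 126 (log2 fold change 1.23, SE 0.30, adjusted p 0.0187). Sesn2, a stress-induced inhibitor of mTORC1, was the 1 that fell (log2 fold change -0.57, adjusted p 0.00823). Of 29 tested genes of the AMPK, mTORC1 and sirtuin list (of 30), 1 rose and 3 fell (13.8%), and leaving out IF16 replicate 4 or 5 or EOD replicate 3 gave 2 that fell. Sirt5, a mitochondrial deacylase, was at 6.39, 6.24, 6.52, 6.56 and 6.05 CPM against 14.8, 12.8, 11.6, 12.2 and 13.1 (log2 fold change -1.02, SE 0.10, adjusted p 5.14e-05), with no overlap. Of 36 tested complement and coagulation genes (of 37) 6 rose and 1 fell, or 19.4%. Leaving out IF16 replicate 2, 3, 4 or 5 or EOD replicate 1, 2, 3 or 4 left 1 to 4 of these 7 calls, and leaving out EOD replicate 5 gave 10 and 1. Of 22 iron genes 4 rose and 3 fell, among them Hamp2 (log2 fold change -1.85, adjusted p 0.00694), a copy close in sequence to Hamp; leaving out IF16 replicate 4 or 5 or EOD replicate 1 or 2 gave 1 or 2 risen and 2 fallen. Markers of the pericentral zone gave 1 higher and 4 lower of 20, with Rgn (log2 fold change -0.71, adjusted p 0.00041) and Gulo (log2 fold change -0.77, adjusted p 0.000628) lower beside Cyp1a2, and periportal genes 2 and 2 of 18; without EOD replicate 5 these were 2 and 6, and 4 and 3. With all libraries, 25% of the pericentral and 22.2% of the periportal genes passed, against 16.6% of all genes. Leaving out IF16 replicate 3 or 5 or EOD replicate 3 or 4 gave 1 or 2 calls among the periportal genes.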

How the data were processed

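RNA from the left lateral lobe was extracted with an EZ-10 kit, enriched for poly-A transcripts on poly-T beads and prepared with an NEBNext Ultra kit, per the labels' protocols. This kit does not mark strand, so reads of a gene and its antisense partner cannot be told apart. Reads were mapped with STAR (version 2.5) to mm10 and counted with HTSeq (version 0.6.1), per the submitters' processing notes. The deposited table holds raw counts per gene, as the authors counted them, for 35275 genes. A second deposited table holds FPKM by the authors, which equal the count scaled by gene length and library total in 100% of values (relative tolerance 1e-06). It was used for limma alternatives only.

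Groups were taken from the labels. Genes were kept by filterByExpr (minimum count 10), leaving 13505 with 13400 of the rest at 0 in all 10 libraries. EOD and IF16 were compared with edgeR 4.0.16 in R 4.3.3 (TMM, robust quasi-likelihood fit, 10 libraries, no covariate, Benjamini-Hochberg threshold 0.05). DESeq2 1.42.0 and limma 3.58.1, another filter, all 15 libraries, a replicate block and leaving out each library were the alternatives, 19 in all. The code was tested on simulated counts, in which 200 of 13505 genes were changed, fewer than passed in the data. It recovered 35.8% of 1.5-fold, 77.6% of 2-fold and 97% of 4-fold changes, and 9 of 149 calls were false. A gene that did not pass may therefore still differ by a small fold. Genes and the 49 pathway and 11 marker lists were chosen with earlier results of these data known. The rule named the 10 largest changes each way among coding genes that passed with a mean of at least 1 CPM in the higher group and no overlap, the 5 smallest p-values and the 3 members of each list with the smallest p. Other list members could be given where a list is described. Some list members are counted but not reported here by name. Levels of different genes were not compared, since CPM is not per length. RefSeq promoters matched 9787 of the tested genes. Totals of 29581097 counts and more put the level of 3 counts at 0.0786 to 0.101 CPM.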

Additional observations from a re-analysis of the deposited data

Results flagged for a closer look

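Among 306 sets of 5 values (each gene named by the rule in each group, library totals and mitochondrial shares), 16 held a library whose gap to the nearest of the others exceeded the 95% critical value of Dixon's test, 0.71 of the range for 5 values. That value marks about 1 in 20 sets of independent, normally distributed values. The sets here come from related genes chosen by the naming rule, so that rate need not apply. Whether the number found exceeds chance was not tested.

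EOD replicate 5 was the lone library in genes of several groups. It was low for Tdo2 (1262 CPM, others 1589 to 1709), Igfbp2 (932, others 1250 to 1405), the droplet protein gene Hsd17b13 (430, others 509 to 541), the proteasome gene Psma5 (64.5, others 85.3 to 94.2) and Hgf (1.72, others 2.98 to 3.33). It was high for mt-Atp6, at 243 CPM against 128 to 152.

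Other EOD libraries stood alone in Cyp3a25 (replicate 4 at 876 CPM, others 1039 to 1071), Acsm1 (replicate 1 at 197, others 248 to 267) and Hamp (replicate 3 at 1357, others 1687 to 1750).

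In IF16, replicate 4 was low for the efflux pump gene Abcb1a (1.93 CPM, others 5.11 to 6.77), for Serpina6 (264, others 356 to 379) and for Gsta1 (10.3, others 17 to 20). Replicate 1 was high for Cyp7a1 (110, others 38.8 to 49.2) and low for Lect2, a secreted hepatokine gene (152, others 169 to 174). Replicate 2 was high for Ctsl (483, others 423 to 432), and replicate 5 for Per2 (62.8, others 33.6 to 39.4).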

How the results depend on the processing

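Between 1973 and 2865 genes passed under DESeq2's size factors (2200), DESeq2's Wald test (2865), no filter (2007), a filter of 1 CPM (2189), all 15 libraries in the fit (2229), and limma on log2 FPKM with a minimum mean of 0.5 (1973 with a pseudocount of 1, 1978 with 0.1), against 2247 in the reported fit. Limma with no minimum called 1427, 694 of them higher. Leaving out 1 library at a time gave 1318 to 3701 genes, 626 to 1913 higher and 692 to 1788 lower. No gene called in both the reported fit and an alternative changed sign in any of the 19 alternatives. Replicate numbers gave little sign of pairing. Deviations of same-numbered libraries correlated at 0.00 to 0.15, and no same-numbered EOD and IF16 libraries were each other's best match. With the replicate block 2738 genes passed, 1421 higher and 1317 lower. The numbers of tested genes differ between filters (11349 to 21875). The median log2 fold change of all tested genes was -0.02 to 0.02 in these alternatives. Among the named genes, the EOD levels of Slc2a4, Erdr1 and Mzb1 reached below that of 3 counts.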
